A study of Melitaea cinxia with 174 samples.

Results

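Lebocin 4 (MCINXTMP_011164) and Moricin 2 (MCINXTMP_014649) encode antimicrobial peptides of families specific to Lepidoptera, here in *Melitaea cinxia*, the Glanville fritillary. They were taken by their gene model numbers, as 2 of the 16667 gene models for which reads were counted. RNA was sequenced from the thorax of 174 adults, with 1 library per individual. The larvae were collected in the wild in diapause, reared singly on the host plant under common garden conditions, and the adults were held for some days after eclosion, so that no group was given an infection or any other treatment. The fragmented landscapes were represented by the Åland Islands (ÅL, 49 individuals, 26 males and 23 females) and Uppland (UP, 20 individuals, 9 males and 11 females), and the continuous landscapes by Saaremaa (SA, 63 individuals, 35 males and 28 females) and Öland (ÖL, 42 individuals, 27 males and 15 females). Each landscape type thus consists of 2 regional populations, so landscape type and region cannot be told apart, and the tests below measure the spread between individuals and not that between populations.

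Antimicrobial peptides are the secreted effectors of the humoral immune response of insects. In the known response, recognition proteins bind bacterial or fungal wall components, the Toll and Imd pathways activate transcription factors of the NF-κB family, and the fat body and the hemocytes release large amounts of peptide into the hemolymph. Lebocins are proline-rich peptides that are cut from longer precursors, and moricins are short cationic peptides that form an amphipathic helix; both families were originally isolated from the hemolymph of the silkworm. Their genes are typically almost silent in uninfected insects and strongly induced after contact with microbes.

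Sequencing depth varied widely. The total count per individual was between 442717 and 7742394, the population medians being 2550153 (ÅL), 3584944 (UP), 1895936 (SA) and 3008807 (ÖL). The normalized count used below is the read count of a gene scaled by the authors for library size and composition, and 3 reads corresponded to between 0.351 and 5.61 normalized counts (median 1.27). A value of 0 therefore says only that no read was sampled. When the individuals were placed by the 20 genes that differed most between the sexes, 4 lay on the side of the other sex, namely ÅL individual 26 and SA individual 9, both labelled female, and ÅL individual 28 and ÖL individual 15, both labelled male. Lebocin 4 was at most 2.05 normalized counts in these 4, and the calls of both genes were the same without them in each comparison fitted with edgeR. The study removed an ÖL and a UP individual with apparently switched labels and another ÖL individual by their genotypes, and these could not be identified and remain in all values here. Muscle markers (2 Troponin C genes and Myosin II heavy chain) were read in every individual, with a sum of 634 to 5452 normalized counts.

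Lebocin 4 was a gene of low level in most butterflies and of very high level in a few. At least 1 read was counted in 134 of the 174 individuals, the median was 1.11 normalized counts, and the highest value was 1768. Only 15 individuals had 10 or more normalized counts, and 6 had 100 or more. The single highest individual held 8078 of the 15620 Lebocin 4 reads, or 51.7%. The 5 highest individuals held 86.9% of all normalized counts, against a median of 9.11% among the 8977 genes tested. On the log2 scale the SD of Lebocin 4 within population and sex was 1.71, the 38th largest of 8977 genes (median SD 0.724).

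By population, Lebocin 4 ranged between 0 and 1768 normalized counts in ÅL with a median of 2.05, and between 0 and 105 in UP with a median of 1.06. It ranged between 0 and 113 in SA with a median of 0.731, and between 0 and 18.3 in ÖL with a median of 0.952. The 4 populations overlapped over nearly all of their values, and the difference between them lay mostly in the upper end. The 4 highest individuals were all from ÅL, namely females 5 (1768) and 4 (505) and males 35 (1021) and 48 (338). SA individual 31, a male, followed with 113, and UP individual 6, a male, with 105. A read of Lebocin 4 was counted in 42 of 49 ÅL, 18 of 20 UP, 42 of 63 SA and 32 of 42 ÖL individuals. These shares move with depth, which was lowest in SA, and among individuals with a total of at least 2000000 reads they were 28 of 33 (ÅL), 17 of 18 (UP), 26 of 30 (SA) and 24 of 27 (ÖL).

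Moricin 2 was rarer. Reads were counted in only 38 of the 174 individuals, and the median was 0 in all 4 populations. There were 790 reads in total, of which 671, or 84.9%, came from ÅL individual 5, the same female that was highest for Lebocin 4. Her 147 normalized counts stood far above the next value, 6.38 in SA individual 20. ÅL individual 35 followed with 5.67, ÅL individual 48 with 4.24 and UP individual 6 with 2.66. The share of all normalized counts held by the single highest individual, 79.0%, was the largest of the 8977 genes tested (median 2.28%). This place is not a like comparison. The other genes tested had passed edgeR's filter on low counts, which asks for reads in several individuals, and Moricin 2 had not. Gene models left out by the filter were not ranked. Individuals with a Moricin 2 read numbered 12 of 49 (ÅL), 8 of 20 (UP), 14 of 63 (SA) and 4 of 42 (ÖL). Without the highest individual of each population, 31 reads remained for ÅL, 16 for UP, 27 for SA and 4 for ÖL. Moricin 2 did not pass edgeR's filter on low counts and was kept in the tests regardless, so its fold changes rest on very few reads.

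**Figure D1:**
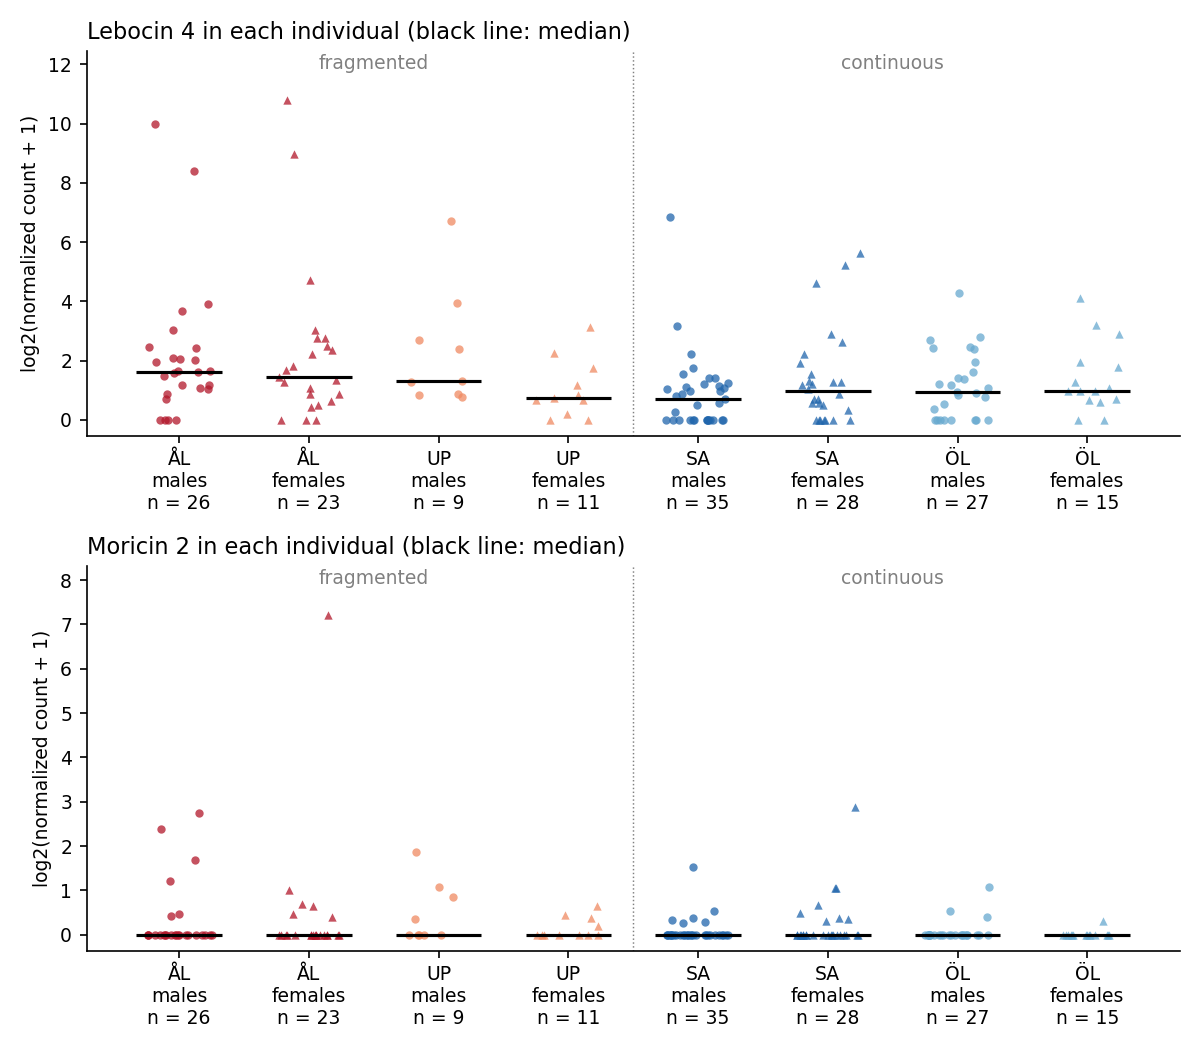
Lebocin 4 (upper panel) and Moricin 2 (lower panel) in each of the 174 individuals as log2(normalized count + 1), by population and sex, with the fragmented populations on the left. Points are individuals (circles, males; triangles, females) and black lines are medians; most individuals lie near 0 for both genes, and ÅL female 5 is highest in both panels, at 1768 and 147 normalized counts.

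The contrast of fragmented and continuous landscapes was the main comparison of the study. Lebocin 4 ranged between 0 and 1768 normalized counts in the 69 individuals from fragmented landscapes, with a median of 1.75 and a mean of 56.9. In the 105 individuals from continuous landscapes it ranged between 0 and 113, with a median of 0.932 and a mean of 3.69. Lebocin 4 was 5.48-fold higher in the fragmented landscapes over all 174 individuals (log2 fold change 2.46 ± 0.47 SE, FDR = 6.16e-06, edgeR quasi-likelihood test with 1 mean per population and sex, Benjamini-Hochberg over 8977 genes). Such a call is common in these data, since 38.9% of the genes tested differed between the landscape types, 20.8% being higher in the fragmented ones. In the balanced set of the study, the 15 individuals with the largest totals in each population, the log2 fold change was 3.67 ± 0.67 SE (FDR = 9.9e-05; 25.6% of 8226 genes called, 14.7% higher in the fragmented landscapes).

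The Lebocin 4 difference was smaller in the other tests. DESeq2 gave a log2 fold change of 1.69 ± 0.40 SE over all individuals (FDR = 0.000181; 41.4% of genes called) and 2.54 ± 0.48 SE in the balanced set (28.3% called). With limma-voom, which works on log counts, it was 0.95 ± 0.38 SE over all individuals (FDR = 0.0346; 38.9% of genes called) and 1.15 ± 0.66 SE in the balanced set, where it did not pass (FDR = 0.208; 22.4% called). A 2-sided permutation test of log2(normalized count + 1) with 100000 permutations of individuals gave a difference of 0.74 over all individuals (p = 0.0131, FDR = 0.0411; 34% of genes called) and 0.94 in the balanced set (p = 0.0542, FDR = 0.157; 21% called). Leaving out ÅL individual 5 left a log2 fold change of 1.98 ± 0.45 SE that passed, and leaving out UP individual 6 left 1.99 ± 0.48 SE that also passed. Without all of ÅL the value was 0.51 ± 0.55 SE (FDR = 0.533), past no threshold. The 114 less deeply sequenced individuals that the balanced set leaves out gave -0.03 ± 1.01 SE (FDR = 0.976). In that set UP, weighted equally with ÅL, is represented only by individuals 16 to 20, none above 1.51 normalized counts. Whether depth plays a part in this value was not tested.

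For Moricin 2, the individuals from fragmented landscapes had a mean of 2.47 normalized counts, a median of 0 and a maximum of 147, and those from continuous landscapes a mean of 0.150, a median of 0 and a maximum of 6.38. A read was counted in 20 of 69 individuals from fragmented landscapes and in 18 of 105 from continuous landscapes. These shares move with depth, which was lowest in SA. Among individuals with a total of at least 2000000 reads they were 7 of 33 (ÅL), 8 of 18 (UP), 11 of 30 (SA) and 4 of 27 (ÖL). At that depth the share of SA was thus above that of ÅL. The edgeR test called Moricin 2 higher in the fragmented landscapes, with a log2 fold change of 2.35 ± 0.73 SE over all individuals (FDR = 4.59e-05) and 3.80 ± 1.02 SE in the balanced set (FDR = 0.000364). The call was not made by the other tests. DESeq2 gave 0.87 ± 0.69 SE (FDR = 0.318), limma-voom 0.38 ± 0.24 SE (FDR = 0.208), and the permutation test a difference of 0.24 on the log2(normalized count + 1) scale (p = 0.0385, FDR = 0.0943). In the balanced set the corresponding FDR values were 0.232, 0.202 and 0.219. Without ÅL individual 5 the edgeR value fell to 1.07 ± 0.56 SE over all individuals (FDR = 0.00903) and to 1.11 ± 0.67 SE in the balanced set, where it no longer passed (FDR = 0.129).

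**Figure D2:**
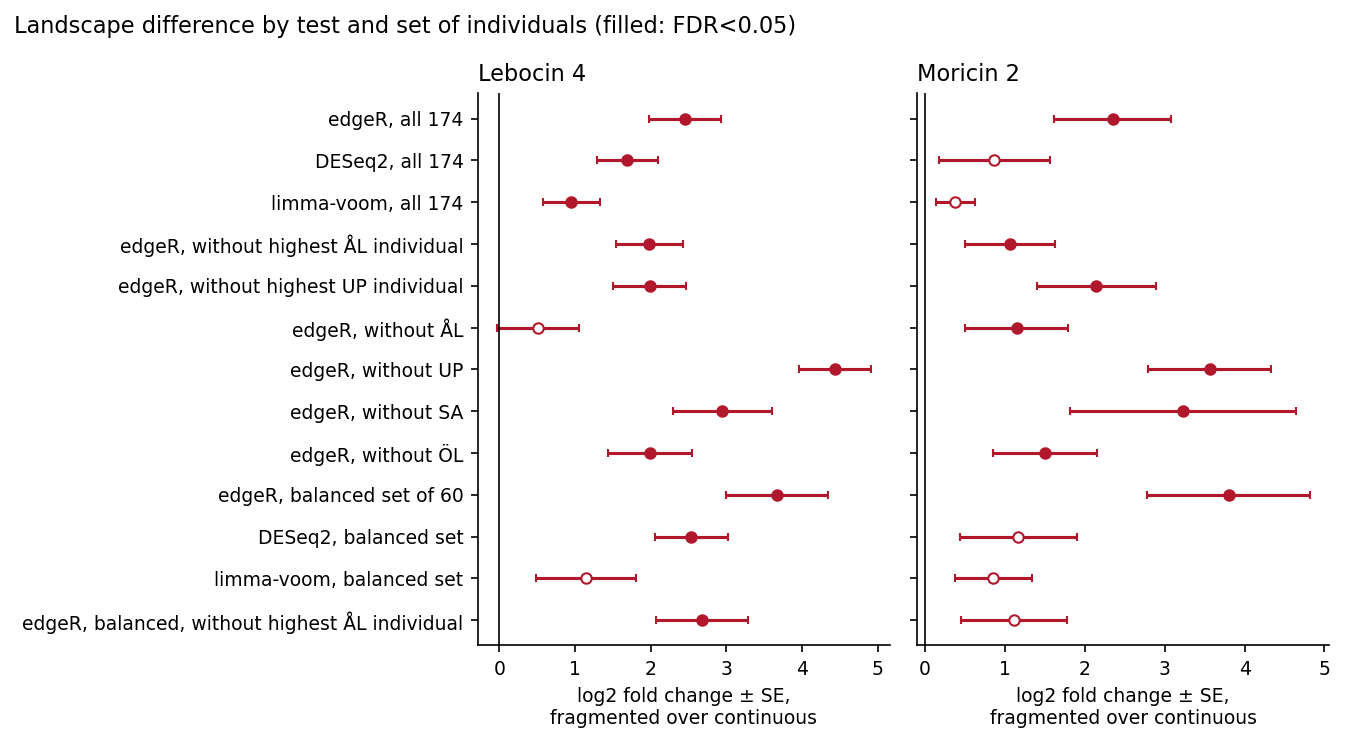
Log2 fold change of Lebocin 4 (left panel) and Moricin 2 (right panel) between fragmented and continuous landscapes, under the tests and sets of individuals named on the vertical axis. Points are estimates, bars are ± 1 SE and filled points have FDR<0.05; all values lie above 0, Lebocin 4 fails in 2 rows (without ÅL, and limma-voom in the balanced set), and Moricin 2 passes only in edgeR rows.

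The landscape difference was also estimated in each sex. In males, Lebocin 4 had a median of 2.05 and a maximum of 1021 normalized counts in fragmented landscapes, against 0.811 and 113 in continuous landscapes. The edgeR log2 fold change in males was 3.16 ± 0.63 SE (FDR = 1.09e-05; 23.6% of genes called, 13.8% higher in the fragmented landscapes), which was 2.20 ± 0.67 SE without UP individual 6 and 4.20 ± 0.63 SE without SA individual 31, both past the threshold. The permutation test in males also passed (difference 1.22, FDR = 0.0273; 13.7% of genes called). In females, the median was 1.35 and the maximum 1768 in fragmented landscapes, against 0.953 and 48.3 in continuous landscapes. The log2 fold change in females was 1.75 ± 0.71 SE and did not pass (FDR = 0.0614; 22.2% of genes called, 12.3% higher in the fragmented landscapes), and without ÅL individual 5 it was 0.80 ± 0.67 SE (FDR = 0.423). It was -1.18 ± 0.80 SE without ÅL (FDR = 0.375) and 4.73 ± 0.70 SE without UP (FDR = 1.11e-07). Leaving out the highest SA individual, male 31, gave 1.75 ± 0.66 SE in females (FDR = 0.0436). No female was removed there, so the value stayed the same and its SE, estimated in the shared fit, became smaller. The permutation test in females gave a difference of 0.27 (FDR = 0.734; 18.8% of genes called). The difference between the sexes in the landscape effect was itself not past the threshold (interaction 1.40 ± 0.94 SE, FDR = 0.685; 0.356% of genes called), so that an effect particular to males is not shown.

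Moricin 2 was called by edgeR in both sexes, with 2.03 ± 0.79 SE in males (FDR = 0.00825) and 2.66 ± 1.23 SE in females (FDR = 0.00675), and its interaction in edgeR was -0.63 ± 1.47 SE (FDR = 0.906). The female value rested on a single butterfly. Females from fragmented landscapes had 688 Moricin 2 reads, 671 of them in ÅL individual 5, and females from continuous landscapes had 43, and without that individual the female value was 0.09 ± 0.95 SE (FDR = 0.677). Males had 44 reads over 10 of 35 individuals in fragmented landscapes and 15 reads over 9 of 62 individuals in continuous landscapes. In males the permutation test gave a difference of 0.32 at the border of the threshold (p = 0.00688, FDR = 0.05005), and the edgeR value without UP individual 6 was 1.61 ± 0.84 SE (FDR = 0.0617). In females the permutation test gave a difference of 0.16 (p = 0.553, FDR = 0.72). Neither DESeq2 nor limma-voom called Moricin 2 higher in the fragmented landscapes in either sex.

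Pairs of populations were compared next to see which of them carried the landscape difference. For Lebocin 4, ÅL stood above the other 3 populations with edgeR. The log2 fold change was 3.91 ± 0.72 SE against UP (FDR = 0.00048; 14.1% of genes called), 3.92 ± 0.50 SE against SA (FDR = 4.38e-11; 54.6% called) and 4.90 ± 0.61 SE against ÖL (FDR = 7.03e-09; 30.2% called). Each of these remained past the threshold without ÅL individual 5, at 2.96, 2.98 and 3.95, and without UP individual 6 or SA individual 31 the values against UP and SA were 4.90 and 4.97. UP did not differ from SA beyond its error (0.01 ± 0.72 SE, FDR = 0.998; 35.7% of genes called), nor from ÖL (0.99 ± 0.80 SE, FDR = 0.548; 7.22% called), and SA did not differ from ÖL (0.98 ± 0.61 SE, FDR = 0.201; 40% called). The order of the population means was thus ÅL (77.0), UP (7.60), SA (4.52) and ÖL (2.43), with no neighbours below ÅL distinguished. The place of UP depended on male 6, since without the highest individual of each population the means were 41.8, 2.50, 2.77 and 2.04 in the same sequence, and UP against SA was -0.94 ± 0.76 SE without him (FDR = 0.355). On the log scale of the permutation test, ÅL exceeded SA by 1.09 (p = 0.00365, FDR = 0.00903; 51.7% of genes called), while the differences of 0.53 to UP (FDR = 0.626; 8.83% called) and 0.93 to ÖL (p = 0.0351, FDR = 0.102; 26.6% called) did not pass.

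For Moricin 2, the edgeR log2 fold changes of ÅL were 2.45 ± 0.72 SE against UP (FDR = 0.00663), 2.71 ± 0.57 SE against SA (FDR = 2.65e-06) and 4.43 ± 1.24 SE against ÖL (FDR = 4.55e-08). Without ÅL individual 5 they were -0.10 ± 0.61 SE, 0.16 ± 0.50 SE and 1.87 ± 0.96 SE, and only the value against ÖL still passed (FDR = 0.00354). Over all individuals the call against ÖL was lost with DESeq2 (1.60), whereas 10 other recalculated values kept it. The permutation test passed against none of UP, SA and ÖL. Its differences were 0.09 (FDR = 0.904), 0.22 (FDR = 0.289) and 0.35 (p = 0.0479, FDR = 0.127). The mean of ÅL was 3.35 normalized counts with female 5 and 0.356 without her. UP had 0.312 and SA 0.217 with all their individuals. Without the highest individual of each population the means were 0.356 (ÅL), 0.188 (UP), 0.118 (SA) and 0.0244 (ÖL). With all individuals ÖL had the lowest mean, 0.0503, from 6 reads. SA was called above ÖL in edgeR (1.72 ± 1.28 SE, FDR = 0.0326), although the SE, computed apart from the test, is large beside the value. SA was still higher but no longer past the threshold with DESeq2 (1.45 ± 0.86 SE, FDR = 0.169) and limma-voom (0.53 ± 0.30 SE, FDR = 0.159). The same held without SA individual 20 (1.17 ± 1.25 SE, FDR = 0.127). UP against ÖL did not pass in edgeR (1.99 ± 1.35 SE, FDR = 0.104) and passed in the permutation test (difference 0.26, p = 0.00261, FDR = 0.0423; 6.8% of genes called). Reads were counted in 8 of 20 UP individuals and 4 of 42 ÖL individuals. UP was the more deeply sequenced, and the study removed individuals of both populations that are counted here, whose part in this result was not tested. UP against SA was 0.26 ± 0.78 SE (FDR = 0.798).

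Males and females did not differ in Lebocin 4 over the populations (log2 fold change of males over females 0.44 ± 0.47 SE, FDR = 0.557; 22.7% of genes called), nor in Moricin 2 (-0.64 ± 0.73 SE, FDR = 0.754). Within populations, the median of Lebocin 4 was 2.09 normalized counts in ÅL males and 1.75 in ÅL females, 1.51 in UP males and 0.682 in UP females, 0.625 in SA males and 0.946 in SA females, and 0.932 in ÖL males and 0.953 in ÖL females. None of the 4 differences passed in edgeR, the log2 fold changes being -0.85 ± 0.69 SE in ÅL (FDR = 0.47; 13.2% of genes called), 3.12 ± 1.25 SE in UP (FDR = 0.323; 0.813% called), -0.20 ± 0.72 SE in SA (FDR = 0.923; 11% called) and -0.33 ± 0.99 SE in ÖL (FDR = 0.902; 9.2% called). In ÅL the sign turned to 1.09 ± 0.68 SE without female 5 (FDR = 0.319). Outside the balanced set the ÅL males were called higher (4.45 ± 0.86 SE, FDR = 0.000573). That split leaves males 35 (1021 normalized counts) and 48 (338) in the comparison, whereas females 5 (1768) and 4 (505) belong to the balanced set. A sex difference among the other ÅL individuals is thus not shown. In UP it was 1.17 ± 1.34 SE without male 6 (FDR = 0.93). In SA the value depended on male 31, since without him it was -2.30 ± 0.83 SE and passed (FDR = 0.0372). The high SA females, such as 8 (48.3) and 20 (36.2), stayed in that fit. DESeq2 likewise called Lebocin 4 lower in the males of SA (-1.75 ± 0.63 SE, FDR = 0.0445). The permutation test did not (difference -0.49, p = 0.182, FDR = 0.443). Of the other recalculated values for SA, 8 kept the direction without passing and 1 was reversed (0.39). A lower level in SA males is thus not shown.

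Moricin 2 was called lower in ÅL males than in ÅL females, with a log2 fold change of -3.70 ± 0.69 SE in edgeR (FDR = 7.89e-06). Reads were counted in 6 of 26 males and 6 of 23 females, with 21 reads in males and 681 in females, and again 671 of these belonged to individual 5. Without her the sign turned to 1.48 ± 0.74 SE (FDR = 0.104), DESeq2 gave 1.79 ± 1.18 SE (FDR = 0.325), and the permutation test gave a difference of -0.11 (FDR = 0.938; 5.67% of genes called). In UP and SA the log2 fold changes were 1.79 ± 1.27 SE and -1.49 ± 0.91 SE, and neither passed (FDR = 0.668 and 0.187). Without the highest individual of the population they were 0.93 ± 1.39 SE in UP and -0.39 ± 0.96 SE in SA. In ÖL there were 5 reads in 27 males and 1 read in 15 females, too few for a fold change.

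The same butterflies tended to be high in both genes. Of the 10 highest individuals for each gene, 6 were shared. A Moricin 2 read was counted in 11 of the 15 individuals with at least 10 normalized counts of Lebocin 4 (73.3%), in 18 of the 77 with 1 to 10 (23.4%) and in 9 of the 82 with less than 1 (10.98%). The median total counts of these classes were 3067221, 3083271 and 2339173, so the class with the fewest Moricin 2 reads was also the least deeply sequenced. The amounts did not keep a fixed ratio. ÅL individual 5 had 8078 Lebocin 4 reads and 671 Moricin 2 reads, whereas ÅL individual 35 had 1800 and 10, ÅL individual 4 had 3261 and 4, and ÅL individual 48 had 239 and 3. SA individual 20, with 142 Lebocin 4 reads, had 25 Moricin 2 reads.

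Across individuals within a population, log2(normalized count + 1) of the 2 genes correlated with Pearson's r = 0.704 in ÅL (n = 49), 0.835 in UP (n = 20), 0.695 in SA (n = 63) and 0.343 in ÖL (n = 42). The permutation p-values were 4e-05, 0.00027, 3e-05 and 0.0282, and 0.000107, 0.00054, 0.000107 and 0.0375 after Benjamini-Hochberg adjustment over the 8 coefficients. Spearman's rho was 0.248, 0.508, 0.545 and 0.179, with permutation p-values of 0.085, 0.0239, 1e-05 (the smallest that 100000 permutations can give) and 0.262, and adjusted values of 0.0971, 0.0375, 8e-05 and 0.262. Without the 2 individuals farthest from the median of Lebocin 4, r was 0.414 in ÅL (adjusted permutation p = 0.0395), 0.486 in UP (0.0776), 0.586 in SA (0.00152) and 0.0114 in ÖL (0.95). In ÖL the relation thus rested on those individuals. In UP r fell under the threshold with 18 individuals left, in ÅL r passed but rho did not (0.11), and in SA both coefficients still passed. The relation within batches could not be examined, because no lane or library batch is given for the individuals.

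**Figure D3:**
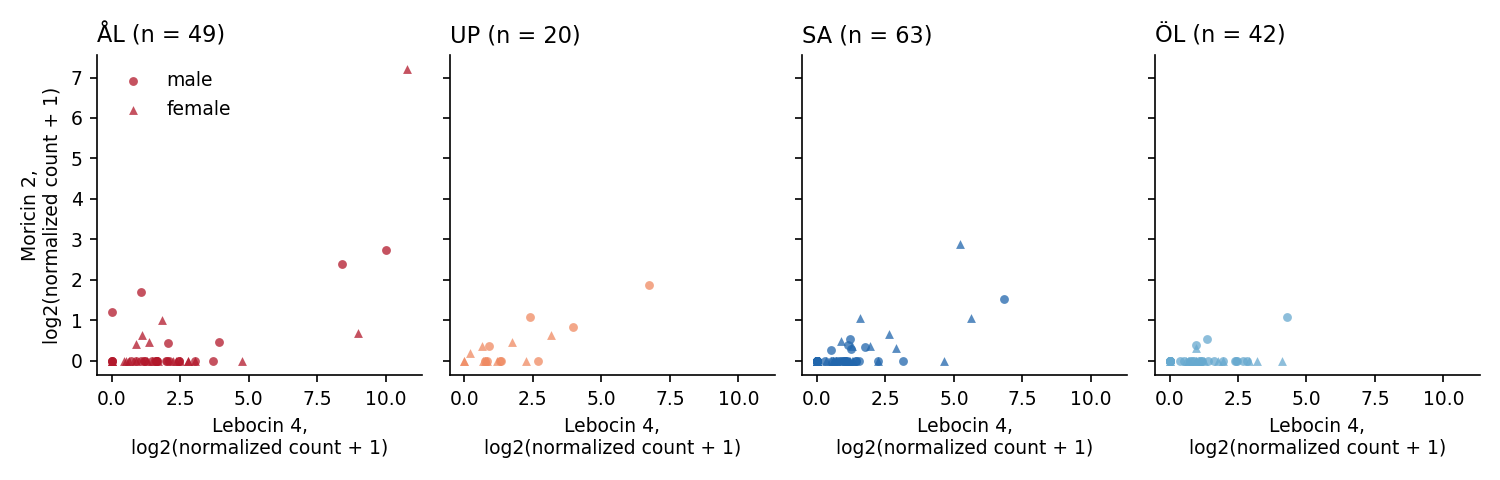
Moricin 2 against Lebocin 4 in each individual, both as log2(normalized count + 1), in 1 panel per population (circles, males; triangles, females). Most individuals lie on the floor of Moricin 2 at 0, and those with high Lebocin 4 tend to rise above it; the isolated point at the upper right of the ÅL panel is individual 5.

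The genes whose pattern was most like Lebocin 4 were other antimicrobial peptides. Likeness was measured as Spearman's rho of log2(normalized count + 1) over the 174 individuals after subtracting the mean of each population and sex. The points share libraries and depth, so the values are descriptive. Of 8976 other genes, the 5 most alike were Defensin-5 (rho 0.674), Gloverin 1 (0.597), Cecropin 3 (0.596), the merged gene of Cecropin 4 and 5 (0.567) and a gene for Gloverin 1 or 3 (0.561). Defensins are cysteine-rich peptides, cecropins are helical peptides that permeabilise bacterial membranes, and gloverins are glycine-rich peptides of Lepidoptera. The median rho over all genes tested was 0.018. Moricin 2 stood 13th, at 0.388, and Defensin-1 was the least alike of the 7 other peptide genes (0.32, place 44). The 5 genes most like Moricin 2 were a serpin, MCINXTMP_001061 (0.452), Gloverin 1 (0.407), Lebocin 4 (0.388), the gene for Gloverin 1 or 3 (0.363) and MCINXTMP_010687 (0.353), a gene model without a name in the sources used here. Serpins are inhibitors of serine proteases, and some of them restrain the protease cascades upstream of Toll. No Moricin 2 read was counted in 136 individuals. After the subtraction these were tied within each population and sex, and ordered between those groups by the group means. The rho values of Moricin 2 can therefore still carry differences between groups, and they cannot be set beside those of Lebocin 4.

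The peptide genes were followed through the 15 individuals with at least 10 normalized counts of Lebocin 4. The 4 highest, all from ÅL, were within the 10 highest of the 174 for each of the other 6 peptide genes. ÅL individual 5 had 4953 normalized counts of Defensin-5, 2325 of Gloverin 1, 2750 of Cecropin 3 and 2336 of the Cecropin 4 and 5 gene, where the medians over all individuals were 8.10, 1.46, 8.59 and 2.46. ÅL individual 35 had 3316, 1111, 4308 and 2604. UP individual 6 was different. With 105 normalized counts it was 6th in Lebocin 4 and 5th in Moricin 2, yet it was only 24th in Defensin-5 (33.4), 19th in Gloverin 1 (13.9), 67th in Cecropin 3 (12.7), 110th in Defensin-1 (5.70) and 122nd in the Cecropin 4 and 5 gene (1.33). ÅL individual 9 was the opposite case, with 1807 normalized counts of Defensin-1, the highest of all, against 13.96 of Lebocin 4.

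**Figure D4:**
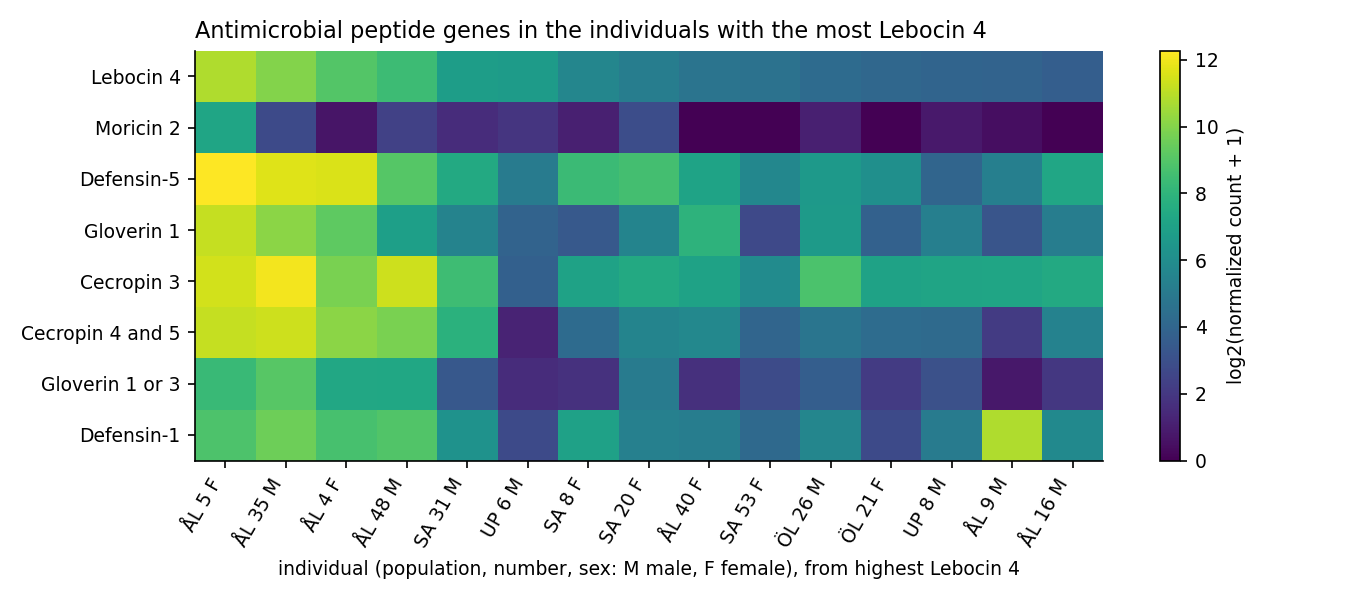
Level of the 8 antimicrobial peptide genes (rows) in the 15 individuals with at least 10 normalized counts of Lebocin 4 (columns, ordered by Lebocin 4), with colour giving log2(normalized count + 1). The columns of ÅL individuals 5, 35, 4 and 48 are bright in nearly all rows, Moricin 2 is bright only in individual 5, and UP individual 6 is dark for the cecropins although Lebocin 4 reached 105 normalized counts.

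The other 6 antimicrobial peptide genes showed the same direction in the landscape comparison. All 6 were higher in the fragmented landscapes over all individuals in edgeR (20.8% of all genes were), with a median log2 fold change of 2.23, against 0.007 for all genes tested. Their values were 2.38 for Gloverin 1 or 3, 2.26 for Defensin-1, 2.24 for Gloverin 1, 2.22 for the Cecropin 4 and 5 gene, 1.92 for Defensin-5 and 1.67 for Cecropin 3. For these 6 genes only edgeR values are given, without the other tests or the omission of single individuals. ÅL individuals 5, 35, 4 and 48 were among the 10 highest for each of the 6. The calls are therefore not independent of each other or of those for Lebocin 4 and Moricin 2. In males all 6 were higher (13.8% of all genes), and in females 5 of 6 (12.3% of all genes), Cecropin 3 not passing (1.13, FDR = 0.154). Against UP, SA and ÖL in turn, 5, 6 and 6 of the 6 were higher in ÅL, where 7.7%, 28.0% and 16.3% of all genes were called higher. Defensin-1 was the only one of the 6 called higher in UP than in SA (1 of 6, against 35.7% of all genes called in either direction) and than in ÖL (1 of 6, against 7.22%). Between SA and ÖL, where edgeR called 40% of all genes, the 6 gave 0 calls, and Cecropin 3 alone had an unadjusted p under 0.05 (-1.07, p = 0.0303, FDR = 0.0699). Defensin-1 was the only peptide gene that differed between the sexes over populations, being higher in males (1.71, FDR = 0.000822). Of the 4 other immune genes of the same flight list, the serpin (2.91, FDR = 2.4e-09) and SsRbeta (0.29, FDR = 0.00255) were higher in fragmented landscapes, and Chitinase-like 3 (1.17, FDR = 0.087) and Pdi (-0.14, FDR = 0.377) did not pass.

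Genes for recognition, signalling and other effectors were taken from the table of landscape differences of the study, which was made on these individuals, so their direction is not independent evidence, and 38.9% of all genes were called in this comparison, 20.8% as higher. Of the recognition genes (Gram-negative bacteria binding protein, PGRP-LD, Hemolin and a C-type lectin, with 1 further gene not tested), 3 of 4 were higher in the fragmented landscapes, and PGRP-LD was lower (log2 fold change -0.24). Of the signalling genes (Toll-4, Dorsal, SARM1-like protein and Serpin-4A, with 2 further genes not tested), Toll-4 (1.19) and Dorsal (1.24) were higher, and SARM1-like protein (-0.58) and Serpin-4A (-1.11) lower. Of the other effectors (lysozymes and Diapausin), 5 of 5 were higher. Their likeness to Lebocin 4 was uneven, with a rho of 0.462 for a lysozyme (MCINXTMP_011858) and 0.272 for Hemolin, but 0.101 for Toll-4, -0.111 for Dorsal and 0.004 for the Gram-negative bacteria binding protein. In the sex comparison over populations, Gram-negative bacteria binding protein (-0.81, FDR = 0.000126) and Hemolin (-0.69, FDR = 0.0364) were lower in males, as log2 fold changes. Of the other genes of the flight list, Pdi (-0.34, FDR = 0.0261) and SsRbeta (-0.34, FDR = 0.000768) were lower and Chitinase-like 3 higher (3.29, FDR = 2.15e-05) in males.

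The thorax holds some fat body besides flight muscle, and in such bulk samples fewer cells of a type and less RNA per cell cannot be told apart. The fat body markers were 4 hexamerin genes, storage proteins made by the fat body. They are the hexamerin genes that the study reported as higher in fragmented landscapes from these individuals. Their landscape direction is therefore not independent evidence, and the other hexamerin genes were not examined. All 4 were higher in the fragmented landscapes over all individuals (median log2 fold change 2.66), where 20.8% of all genes were higher. In males 1 of 4 was higher (13.8% of all genes) and in females 4 of 4 (12.3% of all genes). Between the sexes, 3 of 4 were lower in males than in females (22.7% of all genes differed). The muscle markers also moved between the landscape types, both Troponin C genes being higher (0.34 and 0.33) and Myosin II heavy chain lower (-0.54) in the fragmented ones. The summed level of the 4 hexamerin genes ranged between 0 and 1170 normalized counts in ÅL (median 8.32) and 0 and 1468 in UP (median 1.62). It ranged between 0 and 14.4 in SA (median 1.35) and 0 and 23.2 in ÖL (median 1.34). Each of the 4 hexamerin genes was at 0 in some individuals of every population. Among individuals within population and sex, this sum had a rho of 0.064 with Lebocin 4 and -0.031 with Moricin 2, and the sum of the muscle markers 0.052 and -0.064. ÅL individuals 5, 35, 4 and 48 were 35th, 29th, 50th and 41st of the 174 in the hexamerin sum. Whether fat body content plays a part in the landscape difference was not tested. The total count had a rho of 0.248 with Lebocin 4 and 0.226 with Moricin 2, and with log2 total count as a covariate the landscape values were 2.28 ± 0.48 SE for Lebocin 4 (FDR = 0.000108) and 1.92 ± 0.72 SE for Moricin 2 (FDR = 0.00115).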

How the data were processed

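The authors made strand-specific, polyA-anchored libraries from thorax RNA, called bases with CASAVA 1.7 and, after trimming, mapped reads with TopHat2 2.0.5 to the genomic scaffolds. The deposited raw counts are whole numbers of reads per gene model, without normalization. The deposited normalized counts (signal) were obtained by the authors by scaling with TMM factors of edgeR. The counting program and its use of strand are not given in the sources used here, so reads could be shared among similar peptide genes.

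Counts were tested with edgeR 4.0.16 in R 4.3.3 (TMM, filterByExpr with a minimum count of 10, both genes kept, FDR<0.05), with DESeq2 1.42.0 and limma 3.58.1 as alternatives. The SE of the edgeR quasi-likelihood values was computed from the weights and dispersion of the fit, whereas the FDR is from the quasi-likelihood test. The ratio of a value to its SE therefore need not match its FDR. The permutation test used 100000 permutations within sex (landscape, population pairs) or within population (sex), and none within strata in the balanced set. Permutations ran in numpy 2.4.6 and ranks in scipy 1.17.1, under Python 3.11.15. On simulated counts for the landscape comparison over all individuals (8410 genes), edgeR recovered 97 of 100 genes changed 2-fold and 100 of 100 changed 4-fold, with 7 false calls. For the balanced set (8051 genes) it recovered 90 and 99, with 13 false calls. The changed genes were drawn only from those above a minimum level and below a maximum dispersion. Recovery of genes as uneven as Lebocin 4 or as low as Moricin 2 was not tested.

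Named are both genes, the other 6 antimicrobial peptide genes of the flight gene list of the study, the 5 genes most alike to each, and other listed genes only where the sex test over populations was passed. Further listed genes are named as examples chosen after their values were seen, as are single individuals. The genes, lists and tests were chosen with earlier results of these data known. The omission of the 4 individuals placed with the other sex was added after seeing the data.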

Additional observations from a re-analysis of the deposited data

Results flagged for a closer look

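Among the 9 UP males, Lebocin 4 of individual 6 (105 normalized counts) lay far from the others, with the next at 14.5 and the lowest at 0.702. The gap to the next value was 0.867 of the whole range, above the 95% critical value of 0.493 for 9 samples. Moricin 2 of the same individual (2.66 normalized counts, 14 reads) had a gap of 0.577 of the range to the next value of 1.12. Both gaps were taken on the normalized counts, which are strongly skewed. On the log2(normalized count + 1) scale, chosen after seeing the data, they were 0.464 and 0.419, under the critical value, so neither separation holds on that scale. The critical value flags about 1 in 20 groups by chance for normally distributed values, and the rate for such skewed counts was not tested.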

How the results depend on the processing

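Of 464 recalculated values, 375 kept their direction and their side of the threshold, or for counts stayed within 1.5 times. The others are given here as log2 fold changes, and where no cause is visible from the values the cause was not tested. In the 114 individuals outside the balanced set, the less deeply sequenced ones, Lebocin 4 was -0.031 for landscape, 1.43 for landscape in males, -1.49 for landscape in females, 4.45 for sex in ÅL, 0.39 for sex in SA, 4.45 for ÅL against UP, -2.65 for UP against SA and -1.86 for UP against ÖL. UP had no Moricin 2 read there, so the Moricin 2 values that involve UP depend on the prior count and have no SE, and neither their size nor their sign can be read. As fitted they were -0.16 for landscape, 0.43 in males, -0.74 in females, 1.17 for the interaction, 0.30 for sex, 2.44 for ÅL against UP, -2.19 for UP against SA and -0.56 for UP against ÖL. In comparisons without UP, Moricin 2 was 1.78 for sex in ÅL and 0.25 for ÅL against SA. With DESeq2, Lebocin 4 was -0.39 for sex, -1.75 for sex in SA (now passing), -0.12 for UP against ÖL and -0.48 for SA against ÖL. Moricin 2 with DESeq2 was 0.87 for landscape (1.17 in the balanced set), 1.88 in males, -0.14 in females, 2.02 for the interaction, 0.83 for sex, 1.79 for sex in ÅL, 0.017 for ÅL against UP, 0.15 against SA, 1.60 against ÖL and 1.45 for SA against ÖL. With limma-voom, Lebocin 4 was 1.15 for landscape in the balanced set, 0.70 for ÅL against UP and -0.16 for SA against ÖL. Moricin 2 with limma-voom was 0.38 for landscape (0.86 in the balanced set), 0.46 in males, 0.31 in females, 0.15 for the interaction, 0.42 for sex, 0.095 for sex in ÅL, 0.23 for sex in SA, 0.33 for ÅL against UP, 0.28 against SA, -0.049 for UP against SA and 0.53 for SA against ÖL. With log2 total count as a covariate, UP against SA was -0.30 for Lebocin 4 and -0.60 for Moricin 2, and Moricin 2 was 1.81 for landscape in females, 0.21 for the interaction and -2.24 for sex in ÅL.

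Without ÅL, Lebocin 4 was 0.51 for landscape and -1.18 in females, and Moricin 2 was 0.089 in females and 1.56 in the balanced set. Without UP, Lebocin 4 in females was 4.73 and passed. Without SA, Moricin 2 in males was 2.32, and without ÖL it was 1.77 in males and 1.24 in females, none past the threshold. Without ÅL individual 5, Lebocin 4 for sex in ÅL was 1.09, and Moricin 2 was 0.091 for landscape in females, 1.11 in the balanced set, 1.95 for the interaction, 0.66 for sex, 1.48 for sex in ÅL, -0.10 for ÅL against UP, 0.16 for ÅL against SA and 1.97 for UP against ÖL (now passing). Without UP individual 6, Lebocin 4 was -0.057 for sex and -0.94 for UP against SA, and Moricin 2 was 1.61 for landscape in males and -0.15 for UP against SA. Without the highest SA individual of each gene, Lebocin 4 was 1.75 for landscape in females, -0.087 for sex, -2.30 for sex in SA and -0.066 for SA against ÖL, and Moricin 2 was 1.17 for SA against ÖL. The permutation difference of Lebocin 4 between landscape types was 0.46 with a pseudocount of 5 and no longer passed. Without the 2 farthest individuals the correlation of both genes fell under the threshold in UP (r = 0.486, rho = 0.299) and ÖL (r = 0.0114), and in ÖL also with a pseudocount of 0.5 (r = 0.311). The 3496 genes that differed between landscape types were 1173 outside the balanced set, 1868 without ÅL and 1363 without SA, and the 2109 of the balanced set were 1234 without ÅL and 618 without SA. Depth limits the detection of Moricin 2, and intervals cover the spread between individuals only. No paired analysis was possible because the numbers of individuals name separate butterflies within a population and pair none of them.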

Other observations

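Beyond the named peptides, 3 unnamed gene models were among the 10 most like Lebocin 4 in these data, and they were picked out after their values were seen. MCINXTMP_011163, whose number precedes that of Lebocin 4, had a rho of 0.483. MCINXTMP_009397, whose number follows Gloverin 1, had 0.525, and MCINXTMP_012361, whose number follows the Cecropin 4 and 5 gene, had 0.492. Their position in the genome and their sequences were not analysed here.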
